A study of Drosophila melanogaster with 24 samples.

Results

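The glutathione S-transferase (GST) genes of Drosophila melanogaster were followed by RNA-seq in Gcn2 mutants and wDah controls on 4 diets. Members were taken by name, as every gene whose symbol starts with Gst, a capital letter and a digit. The rule gave 35 genes, with 11 GstD (delta), 14 GstE (epsilon), 3 GstO (omega), 1 GstS (sigma), 4 GstT (theta) and 2 GstZ (zeta) members. Of these, 34 stood among the 12126 genes of the deposited table of all 24 libraries, and GstD6 was listed only in the pairwise tables of Gcn2 flies and of wDah flies on -R. The groups were Gcn2 -R, Gcn2 -M, Gcn2 -All, Gcn2 Yaa, wDah -R, wDah -M, wDah -All and wDah Yaa, with 3 replicate libraries each. The Gcn2 flies carried a null allele of the kinase gene in which a white marker gene took the place of the open reading frame, and both genotypes were in the white Dahomey background. The diets were the synthetic Yaa medium, whose amino acids follow yeast, and that medium without arginine (-R), without methionine (-M) and with no amino acids at all (-All). Each library held the RNA of heads and thoraces of 25 once-mated adult females kept for 3 days on the diet, whose age is not given in the labels.

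GST enzymes join the tripeptide glutathione to reactive and foreign molecules so that the product can be pumped out of the cell, and some of them also reduce peroxides. Delta and epsilon GSTs are expanded in insects, where they are known from insecticide resistance and from the response to oxidants, in part under the cap-n-collar factor (cnc, the fly Nrf2) and its inhibitor Keap1. The omega, sigma, theta and zeta classes are shared with mammals and have more specialised roles. Glutathione is made from cysteine, glutamate and glycine, and animals derive cysteine from methionine. Gcn2 is the kinase that senses uncharged tRNA and phosphorylates the initiation factor eIF2alpha when an amino acid is scarce.

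The depth, estimated from the step between low values, was about 21000000 to 31700000 reads per library, with a median of 24650000 reads. Of the values under 100 reads, 60.5% to 80.1% per library were whole multiples of that step within 0.05 reads. The Gcn2 transcript was at 106 to 185 normalized counts in the 12 Gcn2 libraries and at 597 to 701 in the 12 wDah libraries, without overlap. All 14 photoreceptor and all 8 flight muscle markers were listed, as the labels give heads and thoraces. The 7 Malpighian tubule markers summed to 584 to 1880 normalized counts over the libraries, and both ends of this range were in Gcn2 -R. Its replicates 1, 2 and 3 had 1880, 584 and 754, and those of Gcn2 Yaa had 1075, 1663 and 1059. Some libraries stood apart in genes of other organs. In the pairwise tables with Yaa, the ovary markers summed to 6251 in Gcn2 Yaa replicate 2, against 82.0 and 99.5 in the other two Gcn2 Yaa libraries. They also summed to 11750, 586 and 3358 in the wDah -All libraries, against 47.6 to 72.9 in wDah Yaa, and to 1110 in Gcn2 -All replicate 1, against 127 and 231 in the other two. In the table of 24 libraries, the oenocyte markers summed to 19981 in Gcn2 -R replicate 1 (4855 and 5795 in the other two), to 9478 in Gcn2 -M replicate 2 (1882 and 2083) and to 27511 in Gcn2 Yaa replicate 2 (12065 and 12407). Results on Gcn2 -R are also given without Gcn2 Yaa replicate 2 and Gcn2 -R replicate 1, and those on -M and -All without each library. In bulk samples, fewer cells of a type and less RNA per cell cannot be told apart.

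Most members lie in 2 gene clusters (build BDGP6.54). The GstD cluster spans 20.8 kb of chromosome arm 3R, from 12364776 to 12385624, and holds all 11 GstD genes and no other member. GstD10, GstD9 and GstD1 are on its minus strand, and GstD2 to GstD8 and GstD11 on its plus strand. The GstE cluster spans 13.2 kb of 2R, from 18396638 to 18409835, and holds GstE10 and GstE1 to GstE9, while GstE11, GstE12, GstE13 and GstE14 are single genes elsewhere on 2R. GstO3, GstO2 and GstO1 lie within 6.0 kb on 3L, GstZ1 and GstZ2 within 5.1 kb on 3R, and GstT1 and GstT2 within 2.4 kb on 2R. GstS1 is a single gene on 2R, and GstT3 and GstT4 are on the X chromosome. Members of a cluster are close copies of each other and may share reads, so the split of counts between neighbours is uncertain. The annotated spans of GstE1 and GstE10, GstE9 and imd, GstE12 and CG3894, GstE13 and CG18659, GstO2 and se, and GstT2 and CG12926 overlap.

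To compare levels between genes, FPKM (fragments scaled to transcript length and library size) was used. GstD1, which detoxifies DDT and whose promoter is widely used as a reporter of oxidative stress, had the highest level of all members. Its mean FPKM was 1441 ± 7.52 in Gcn2 -R, 917 ± 121 in Gcn2 -M, 776 ± 113 in Gcn2 -All and 781 ± 59.2 in Gcn2 Yaa (SD, n = 3). In wDah flies it was 743 ± 99.1 on -R, 686 ± 17.9 on -M, 704 ± 64.8 on -All and 573 ± 12.1 on Yaa (SD, n = 3). GstD1 was thus highest in Gcn2 -R, and its lowest Gcn2 -R library was above all other libraries. GstD9, the next delta gene by overall mean, had 192 ± 22.0 FPKM in Gcn2 -R and means of 28.9 to 38.9 FPKM in the other 7 groups. Among all members, GstE12 (294 to 440 FPKM over the group means), GstS1 (145 to 265) and GstE9 (127 to 312) came next after GstD1 by overall mean. GstT4 (51.7 to 123) and GstT1 (24.0 to 227) led the theta class, GstO2 (66.6 to 98.0) and GstO3 (59.7 to 69.5) the omega class, and GstZ2 (14.2 to 31.8) and GstZ1 (5.66 to 11.8) the zeta class. At the other end, GstE4 averaged at most 1.02 FPKM and GstD11 at most 1.02 FPKM in any group.

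By group, 21 of the 34 members had their highest mean FPKM in Gcn2 -R, and for 15 of these every Gcn2 -R library was above all 21 libraries of the other groups. Over all 12126 genes, 30.5% were highest in Gcn2 -R and 15.7% had every Gcn2 -R library above all others. Another 6 members, all GstE, were highest in Gcn2 -All, among them GstE4 at a mean of only 1.02 FPKM. The share of all genes highest in Gcn2 -All was not computed, so this count is not read as a trait of the class. Summed over the 34 members, the level was 4715 ± 171 FPKM in Gcn2 -R, 2544 ± 201 in Gcn2 -M, 2436 ± 144 in Gcn2 -All and 2140 ± 102 in Gcn2 Yaa (SD, n = 3). In wDah flies the sum was 2234 ± 197 on -R, 2146 ± 55.1 on -M, 2314 ± 141 on -All and 1810 ± 10.4 on Yaa. The GstD sum was 2304 ± 119 in Gcn2 -R and 851 ± 64.3 in Gcn2 Yaa, and the GstE sum was 1690 ± 155 FPKM in Gcn2 -R and 799 ± 37.4 FPKM in Gcn2 Yaa. The GstT sum was 335 ± 10.8 in Gcn2 -R and 158 ± 1.04 in Gcn2 Yaa, and the GstZ sum was 43.7 ± 2.05 FPKM in Gcn2 -R and 19.8 ± 1.43 FPKM in Gcn2 Yaa. The GstO sum was 147 ± 7.87 FPKM in Gcn2 -R and 166 ± 9.03 FPKM in Gcn2 Yaa. The omega class was thus the only subclass whose sum was lower in Gcn2 -R than in Gcn2 Yaa. Its mean was also below Yaa on the other diets, at 155 ± 6.8 FPKM in Gcn2 -M and 159 ± 6.6 in Gcn2 -All. In wDah flies the GstO sum was 152 ± 4.9 on -R, 148 ± 2.1 on -M and 157 ± 6.8 on -All. On wDah Yaa it was 166 ± 2.6. The GstZ sum in wDah -M, 39.1 ± 2.8 FPKM, was near that in Gcn2 -R.

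**Figure D1:**
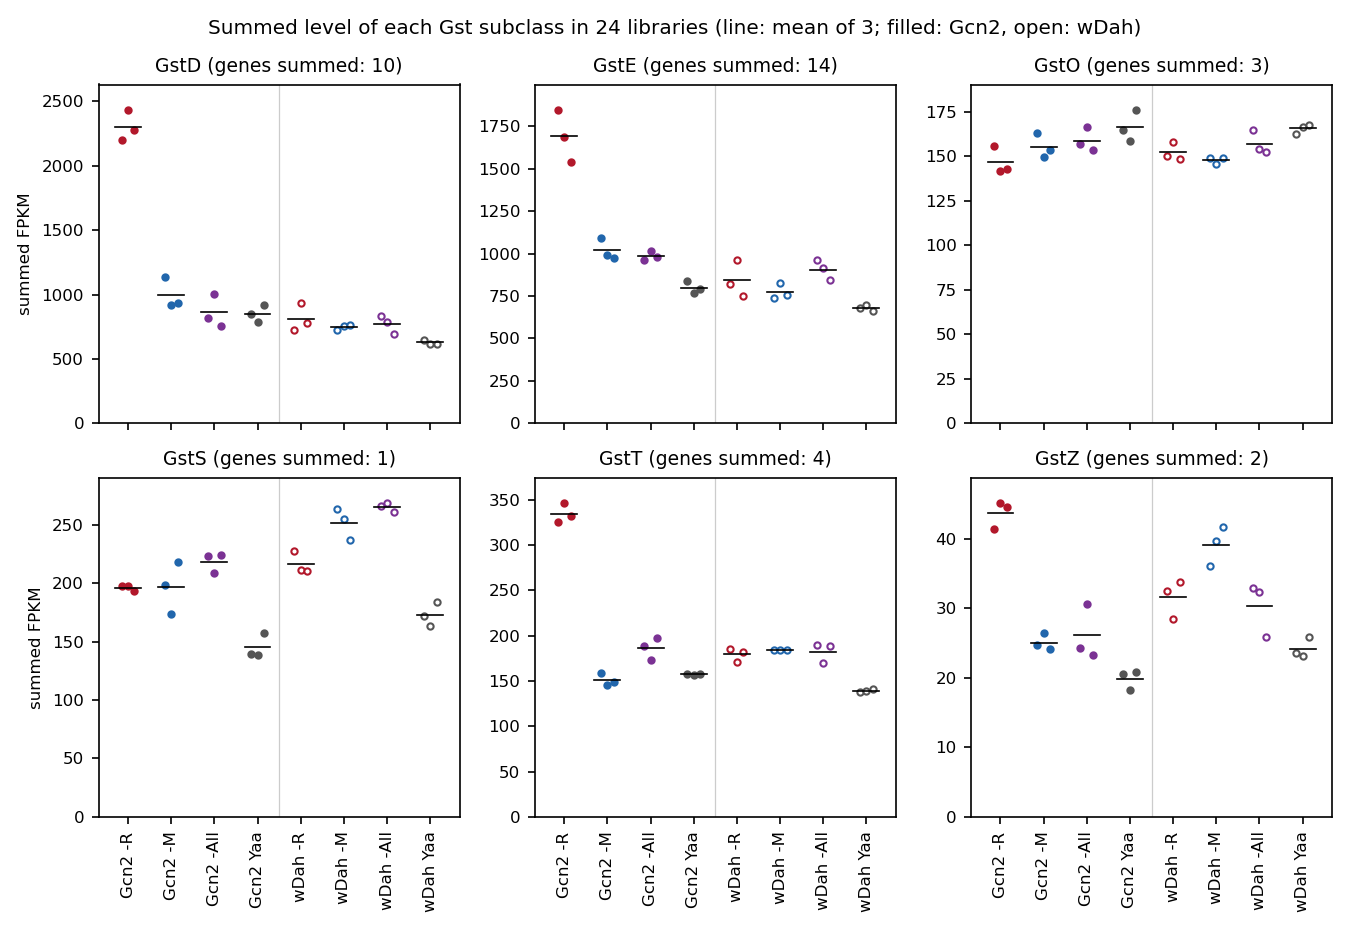
Summed FPKM of each GST subclass in each library, by genotype and diet, with a point per library and a line at the mean of the 3 replicates. The Gcn2 -R libraries stand above all other groups in the GstD, GstE and GstT panels (GstD sum 2304 ± 119 FPKM in Gcn2 -R, 851 ± 64.3 in Gcn2 Yaa), but not in GstO.

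The make-up of the GstD class changed with its level. GstD1 made up 62.6% ± 2.91 (SD, n = 3) of the summed GstD FPKM in Gcn2 -R, and between 90.1% and 91.9% on average in each of the other 7 groups. Without GstD1, the other 9 listed GstD genes summed to 764, 985 and 839 FPKM in the Gcn2 -R libraries, against 75.1, 62.4 and 73.1 FPKM in the Gcn2 Yaa libraries. The remaining groups averaged 55.6 to 85.4 FPKM in this sum. The largest contributors in Gcn2 -R were GstD2 (271 ± 70.9 FPKM) and GstD5 (219 ± 5.08 FPKM), which had 8.42 ± 3.30 and 3.08 ± 0.316 FPKM in Gcn2 Yaa.

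To ask which members respond to arginine deprivation without Gcn2, Gcn2 -R was compared with Gcn2 Yaa. Fold changes are differences of log2(normalized count + 1), which understate the change of low genes, and are given with their SE and the limma p adjusted over all genes tested. Of the 34 members tested, 21 rose and 3 fell (adjusted p under 0.05), where 20.9% of all genes tested passed (15.5% higher and 5.41% lower). Of the 24, 16 changed by over 2-fold, as did 8.21% of all genes. The median log2 fold change was 0.88 over the members and -0.07 over all genes. Of the 11 GstD genes 10 rose (9 of 10 without GstD6), as did 6 of the 13 GstE genes tested, GstT1 and GstT2, both GstZ genes and GstS1, while GstT4, GstO2 and GstE13 fell. The groups did not overlap in 28 members, where this was so for 48% of all genes tested. A single member, GstE4, was under the minimum mean of 10 counts. GstD6 passed it only through its Gcn2 -R libraries, and without GstD6 20 of 33 members rose, 15 of those called changed by over 2-fold, 27 did not overlap and the median was 0.85.

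Among the delta genes, GstD5, GstD6, GstD2, GstD10 and GstD4 moved most. GstD5 (FBgn0010041) had 3945, 4026 and 3873 normalized counts in Gcn2 -R, against 50.7, 58.7 and 61.4 in Gcn2 Yaa (log2 fold change 6.10 ± 0.11, adjusted p = 9.87e-06). GstD2 (FBgn0010038) had 3119, 5164 and 3898 in Gcn2 -R, against 186, 82.4 and 122 in Gcn2 Yaa (5.00 ± 0.33, adjusted p = 0.000206). GstD10 (FBgn0042206) had 1291, 1806 and 1532 in Gcn2 -R, against 87.6, 60.6 and 96.0 in Gcn2 Yaa (4.24 ± 0.22, adjusted p = 9.36e-05). In each of these genes the lowest -R library was far above the highest Yaa library. GstD4 had 262, 239 and 201 in Gcn2 -R, against 16.6, 9.47 and 18.9 in Gcn2 Yaa (3.92 ± 0.30, adjusted p = 0.000379). GstD6 had 133, 142 and 143 in Gcn2 -R, against 2.07, 2.84 and 3.78 in Gcn2 Yaa, and reached the minimum mean only through Gcn2 -R, so no p is given. The ratio of the GstD6 sums was 46.6, with a 95% interval of 24.3 to 102.5 that covers counting error only.

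The other delta genes rose by smaller factors, except GstD11, which did not pass. GstD8 had 182, 166 and 162 normalized counts in Gcn2 -R, against 19.7, 12.3 and 18.9 in Gcn2 Yaa (log2 fold change 3.28 ± 0.25, adjusted p = 0.000372). GstD7 had 123, 67.1 and 57.3 in Gcn2 -R, against 12.4, 6.63 and 11.3 in Gcn2 Yaa (2.87 ± 0.42, adjusted p = 0.00526). GstD9 had 2944, 3538 and 2955 in Gcn2 -R, against 595, 534 and 626 in Gcn2 Yaa (2.42 ± 0.12, adjusted p = 8.44e-05). For GstD7 the first Gcn2 -R library was well above the other two, and in none of these genes did the groups overlap. GstD3 rose by 2.02 ± 0.11 and GstD1, the most abundant, by 0.85 ± 0.10 on the log2 scale. GstD1 had 26272, 26020 and 25829 in Gcn2 -R, against 14496, 13165 and 15834 in Gcn2 Yaa (adjusted p = 0.0024). GstD11, at the far end of the cluster, had 12.1, 18.9 and 16.6 in Gcn2 -R and 22.4, 16.4 and 22.5 in Gcn2 Yaa, which overlap (log2 fold change -0.35 ± 0.38, adjusted p = 0.529).

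**Figure D2:**
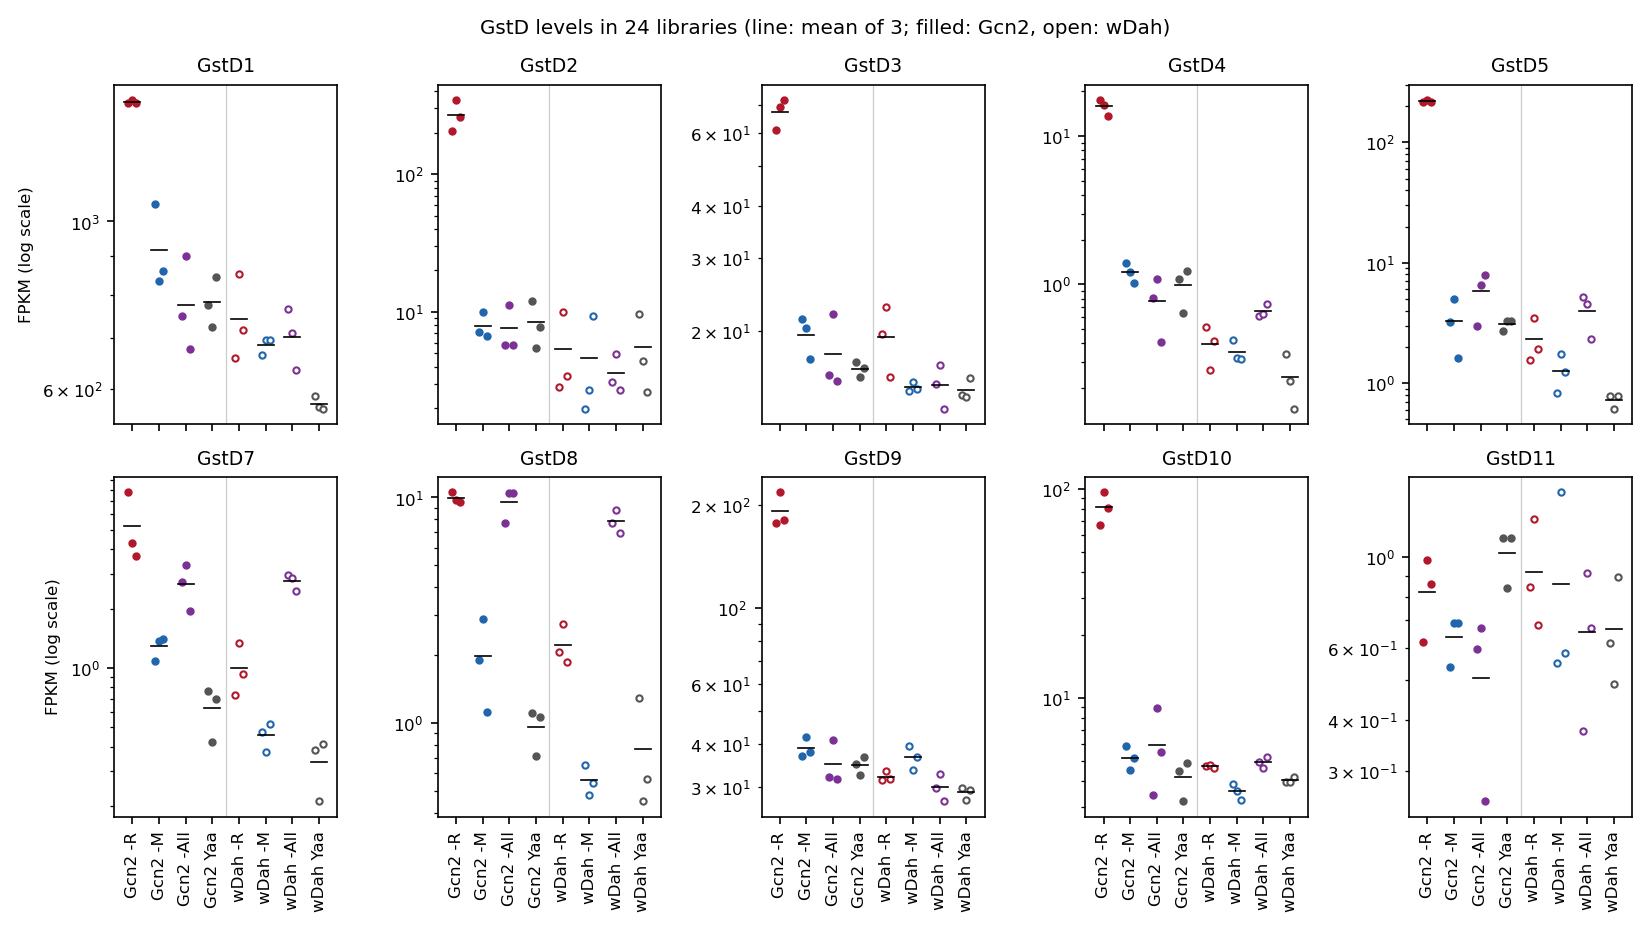
Level of each GstD gene in FPKM on a log axis in the 8 genotype and diet groups, with a point per library and a line at the mean of 3. In most panels the 3 Gcn2 -R libraries stand apart from all others (GstD5 219 ± 5.08 FPKM in Gcn2 -R, 3.08 ± 0.316 in Gcn2 Yaa), GstD8 is nearly as high in the -All groups (9.58 ± 1.61 FPKM in Gcn2 -All, 7.84 ± 0.904 in wDah -All and 9.94 ± 0.526 in Gcn2 -R), and GstD11 is low throughout.

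Of the epsilon genes in the cluster, 6 of the 9 tested rose and none fell. Of the 4 outside it, GstE13 fell (-0.37 ± 0.10, adjusted p = 0.0423) and none passed upward, though GstE11 was at 0.76 ± 0.25 (adjusted p = 0.0759), near the size of GstE3 and GstE9. The cluster was not tested against the other genes. GstE6 had 5926, 7193 and 6190 normalized counts in Gcn2 -R, against 1433, 1311 and 1231 in Gcn2 Yaa (log2 fold change 2.28 ± 0.11, adjusted p = 9.05e-05). GstE7 had 1702, 1785 and 1819 in Gcn2 -R, against 442, 478 and 582 in Gcn2 Yaa (1.83 ± 0.13, adjusted p = 0.00027). GstE1 had 9179, 6841 and 5673 in Gcn2 -R, against 2686, 2409 and 1757 in Gcn2 Yaa (1.66 ± 0.23, adjusted p = 0.0042). The neighbours GstE6 and GstE7 thus rose most, and GstE1 varied more between replicates than they did. None of these genes overlapped between the diets. GstE8 rose by 1.18 ± 0.19, GstE9 by 0.84 ± 0.13 and GstE3 by 0.78 ± 0.13. GstE14, known as Noppera-bo and needed for ecdysteroid synthesis, was at 177, 159 and 157 in Gcn2 -R and 155, 128 and 143 in Gcn2 Yaa and did not pass the test (adjusted p = 0.319).

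**Figure D3:**
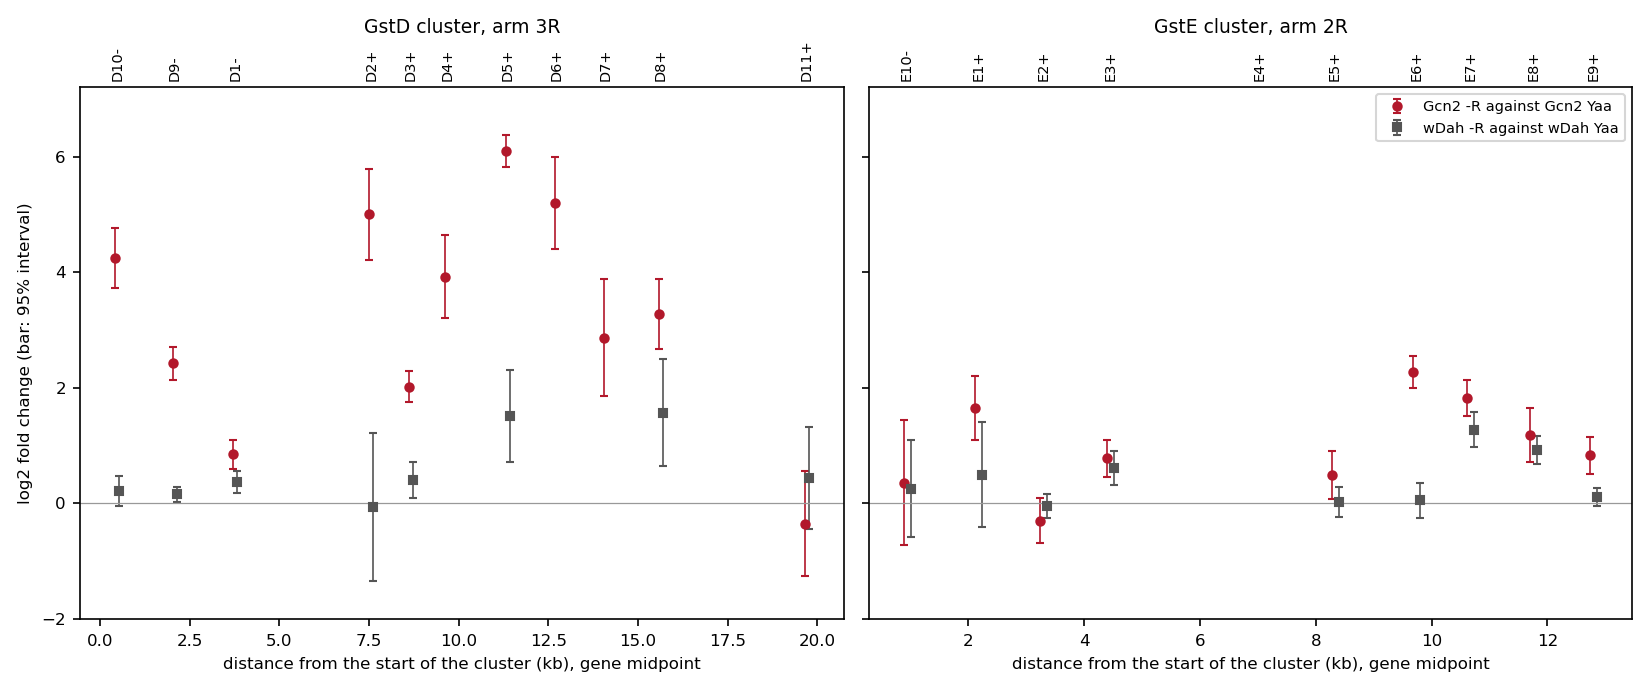
Log2 fold change on -R against Yaa, with 95% confidence intervals, of the members of the GstD and GstE clusters at their distance in kb from the cluster start, in Gcn2 flies (circles) and wDah flies (squares). In Gcn2 flies 10 of 11 GstD genes (9 of 10 without GstD6) and 6 of 9 GstE genes rose, with the highest point at GstD5 (6.10).

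The remaining classes split by gene. GstT1 (FBgn0050000) had 4986, 5286 and 5016 normalized counts in Gcn2 -R, against 964, 906 and 1025 in Gcn2 Yaa (log2 fold change 2.40 ± 0.09, adjusted p = 4.61e-05). GstT4 (FBgn0030484) had 1390, 1479 and 1576 in Gcn2 -R, against 2621, 2229 and 2484 in Gcn2 Yaa (-0.72 ± 0.10, adjusted p = 0.0052). These theta genes moved in opposite directions, each without overlap. The zeta genes encode maleylacetoacetate isomerases, enzymes of tyrosine breakdown, and rose by 1.13 ± 0.11 (GstZ2) and 1.02 ± 0.14 (GstZ1). GstS1, which conjugates lipid peroxidation products and is abundant in flight muscle, rose by 0.40 ± 0.10 (adjusted p = 0.0308). GstO2 fell by 0.59 on the log2 scale (SE 0.11, adjusted p = 0.012), with 1438, 1293 and 1293 in Gcn2 -R and 1998, 1855 and 2224 in Gcn2 Yaa, while GstO1 and GstO3 did not pass.

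Of these 24 calls, 20 held under every alternative in which the gene was tested, and GstE3, GstO2, GstS1 and GstE13 did not. GstD6 is not listed for all 24 libraries, so it was not tested with FPKM or in 1 fit of all libraries. GstD7 was not tested with a minimum mean of 50. GstE3 (highest adjusted p = 0.0541) was lost without Gcn2 -R replicate 2 and with the replicate number as a block. GstO2 (highest adjusted p = 0.0659), GstS1 (highest adjusted p = 0.135) and GstE13 (highest adjusted p = 0.165) were lost with that block and without Gcn2 Yaa replicate 1 or 3 or Gcn2 -R replicate 2 or 3, and GstE13 also with no filter on low values. Leaving out both libraries that stood apart gave 28 calls, 24 higher and 4 lower, which included all 24 calls above. The share of all genes called was not computed without these libraries. Markers of other organs also differed between these groups. The gut digestive enzyme sum (20 of 25 genes listed) was 77653 to 122896 in Gcn2 -R and 193038 to 225541 in Gcn2 Yaa, and the fat body sum (6 of 6 genes) was 684678 to 961191 in Gcn2 -R and 527521 to 529730 in Gcn2 Yaa. Their part in the GST results was not tested. In wDah flies the digestive sum moved the other way, with 321460.0 to 352549 on -R and 183485 to 207675 on Yaa, and the fat body sum was 1303350 to 1437076 on -R and 395810 to 470019.9 on Yaa.

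To compare genotypes on the arginine-free diet, Gcn2 -R was set against wDah -R in the table of all 24 libraries. Of the 33 members tested, 19 were higher and 3 lower in Gcn2 -R (18 of 32 higher without GstD4, which reached the minimum only through Gcn2 -R), where 45.8% of all genes tested passed (27.7% higher and 18.2% lower). The difference between the genotypes' responses was then tested as an interaction, the log2 change on -R in Gcn2 minus that in wDah. It passed in 14 members upward and in 2 downward of 33 tested, where 21.5% of all genes passed (15.9% upward and 5.63% downward). By class, 8 of the 10 GstD genes tested, 2 of the 13 GstE, 2 of the 4 GstT and both GstZ had a positive interaction, and GstT4 and GstO2 a negative one. GstD4 is among the 8 and the 14, although its wDah means on -R and Yaa were under 10 counts. It reached the minimum only through Gcn2 -R, so each of these counts is smaller without it. The wDah Yaa and Gcn2 Yaa libraries enter several of these contrasts, which are therefore not independent of each other.

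For the members that differed most, the values in the table of all 24 libraries were as follows. GstD5 had 3342, 3473 and 3333 normalized counts in Gcn2 -R, 49.7, 77.2 and 24.7 in Gcn2 -M, 45.8, 99.97 and 123 in Gcn2 -All, and 23.8, 53.7 and 29.3 in wDah -R. No library outside Gcn2 -R exceeded 123. Gcn2 -R was higher than wDah -R by 6.61 ± 0.28 on the log2 scale, than Gcn2 -M by 6.18 ± 0.38 and than Gcn2 -All by 5.34 ± 0.34 (adjusted p = 2.28e-05, 0.000103 and 7.68e-05), with an interaction of 4.61 ± 0.35 (adjusted p = 7.51e-06). GstD2 had 2642, 4453 and 3355 in Gcn2 -R, 92.1, 128 and 86.0 in Gcn2 -M, 74.3, 145 and 74.4 in Gcn2 -All, and 36.8, 129 and 44.0 in wDah -R. The second wDah -R library was well above the other two, and all Gcn2 -R libraries were far above it. The differences were 5.82 ± 0.48 to wDah -R, 5.07 ± 0.23 to Gcn2 -M and 5.18 ± 0.31 to Gcn2 -All (adjusted p = 0.000246, 3.76e-05 and 5.94e-05), and the interaction was 5.10 ± 0.76 (adjusted p = 0.000755).

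GstD10 and GstD4 were likewise highest in Gcn2 -R, at lower counts. GstD10 had 1089, 1551 and 1313 normalized counts in Gcn2 -R, 94.7, 72.4 and 82.9 in Gcn2 -M, 55.5, 145 and 88.9 in Gcn2 -All, and 75.7, 76.5 and 74.7 in wDah -R. The differences on the log2 scale were 4.09 ± 0.14 to wDah -R, 3.96 ± 0.16 to Gcn2 -M and 3.85 ± 0.34 to Gcn2 -All (adjusted p = 1.18e-05, 2.6e-05 and 0.000292), and the interaction was 4.06 ± 0.23 (adjusted p = 1.1e-06). GstD10 thus stood apart in Gcn2 -R alone among these groups, without overlap. GstD4 had 222, 206 and 173 in Gcn2 -R, 17.6, 15.4 and 13.0 in Gcn2 -M, 10.2, 13.8 and 5.19 in Gcn2 -All, and 6.49, 3.36 and 5.23 in wDah -R. The difference of GstD4 to Gcn2 -M was 3.63 ± 0.18 (adjusted p = 5.28e-05). Against wDah -R and Gcn2 -All it reached the minimum only through Gcn2 -R, and the ratios of the sums were 40.1 (95% counting interval 24.1 to 72.0) and 20.7 (14.3 to 31.2).

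GstD9, GstD3 and GstT1 had higher base levels. GstD9 had 2498, 3057 and 2547 normalized counts in Gcn2 -R, 518, 589 and 533 in Gcn2 -M, 451, 579 and 445 in Gcn2 -All, and 443, 468 and 446 in wDah -R. Its differences were 2.57 ± 0.10, 2.30 ± 0.11 and 2.46 ± 0.14 to wDah -R, Gcn2 -M and Gcn2 -All (adjusted p = 1.65e-05, 3.88e-05 and 4.95e-05). GstD9 outside Gcn2 -R stayed within 383 to 589 counts in every library. GstT1 had 4223, 4559 and 4316 in Gcn2 -R, 549, 486 and 517 in Gcn2 -M, 514, 555 and 557 in Gcn2 -All, and 460, 528 and 535 in wDah -R. Its differences were 3.10 ± 0.09, 3.07 ± 0.08 and 3.01 ± 0.08 to wDah -R, Gcn2 -M and Gcn2 -All (adjusted p = 6.8e-06, 4.37e-06 and 3.83e-06). All Gcn2 -R libraries of GstT1 were thus far above those of the other groups. GstD3 had 800.1, 912 and 947 in Gcn2 -R, 206, 288 and 199 in Gcn2 -All, and 259, 299.8 and 203 in wDah -R (1.95 ± 0.16 to Gcn2 -All, adjusted p = 0.000247).

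GstE6 and GstE1 differed most among the epsilon genes. GstE6 had 5020, 6204 and 5327 normalized counts in Gcn2 -R, 1610, 1424 and 1349 in Gcn2 -M, 1390, 1509 and 1434 in Gcn2 -All, and 1130, 1196 and 818 in wDah -R. Its differences were 2.41 ± 0.16 to wDah -R and 1.91 ± 0.11 to Gcn2 -M (adjusted p = 0.000118 and 8.67e-05), with an interaction of 2.26 ± 0.20 (adjusted p = 1.83e-05). GstE1 had 7775, 5900 and 4882 in Gcn2 -R, 1107, 1133 and 1100 in Gcn2 -All, and 1078, 2487 and 659.5 in wDah -R. The second wDah -R library was thus well above the other two and below every Gcn2 -R library. The differences of GstE1 were 2.33 ± 0.47 to wDah -R and 2.45 ± 0.17 to Gcn2 -All (adjusted p = 0.00872 and 0.000105). The interaction of GstE1 was 1.20 ± 0.54 and did not pass (adjusted p = 0.145), nor did that of GstE7 (0.59 ± 0.20, adjusted p = 0.0556). GstT4 differed in the other direction, with 1178, 1275 and 1356 in Gcn2 -R and 3260, 2756 and 2966 in wDah -R (-1.24 ± 0.09, adjusted p = 0.000175, and interaction -1.21 ± 0.12, adjusted p = 3.91e-05).

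**Figure D4:**
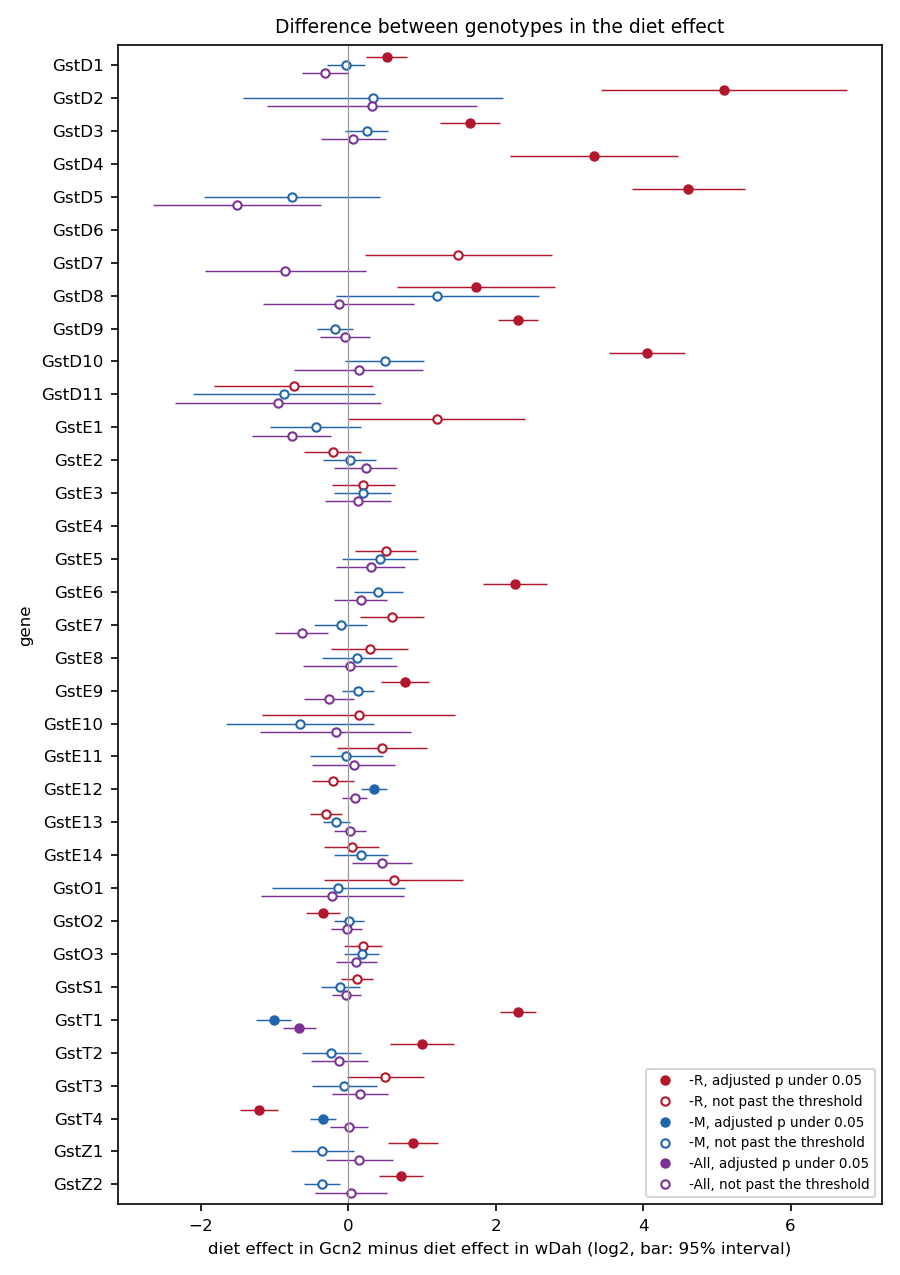
Difference between the genotypes in the diet effect (log2 change in Gcn2 minus that in wDah) of each GST gene on -R, -M and -All, with 95% confidence intervals and filled points where the adjusted p was under 0.05. On -R, GstD2 (5.10), GstD5 (4.61) and GstD10 (4.06) lie far to the right of 0 and GstT4 (-1.21) to its left.

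Among Gcn2 flies, Gcn2 -R was then set against the other deprived diets. Against Gcn2 -M, 19 of 33 members tested were higher in Gcn2 -R and 4 lower, where 36.8% of all genes tested passed (23.7% higher and 13.1% lower). Against Gcn2 -All, 16 of 34 were higher and 5 lower, where 37% passed (22.9% higher and 14.1% lower). Without GstD4, GstD11 and GstE4, which reached the minimum only through 1 group, 15 of 31 were higher. With every library scaled to the same total of normalized counts, the splits became 19 higher and 1 lower against Gcn2 -M and 17 higher and 1 lower against Gcn2 -All, so the lower calls of GstE12, GstE13, GstE14 and GstO2 depended on the scaling. GstD7 and GstD8 were called against Gcn2 -M and not against Gcn2 -All. GstD7 was higher by 1.90 ± 0.32 than in Gcn2 -M (adjusted p = 0.00522), and by 0.91 ± 0.34 than in Gcn2 -All (adjusted p = 0.0773). GstD8 had 154, 143 and 139 normalized counts in Gcn2 -R, 27.9, 42.5 and 16.5 in Gcn2 -M, and 113, 154 and 154 in Gcn2 -All. GstD8 was higher in Gcn2 -R than in Gcn2 -M (2.39 ± 0.33, adjusted p = 0.00223), and against Gcn2 -All it overlapped (0.07, 95% confidence interval -0.30 to 0.44, adjusted p = 0.756).

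Deprivation of all amino acids was then compared with Yaa. In Gcn2 flies 11 members rose and 2 fell of 34 tested, where 13.8% of all genes tested passed (10.6% higher and 3.26% lower). GstD4, GstD7, GstD11 and GstE4 reached the minimum only through 1 group, and without them 10 of 30 rose. In wDah flies 12 rose and 1 fell of 32 tested, where 34.8% of all genes passed (19.9% higher and 14.8% lower), or 11 of 31 without GstD7, which reached the minimum only through -All. The wDah count was 12 without wDah -All replicate 1 and 16, all higher, without replicate 3. Organ markers moved with these diets too. The fat body sum was 2767095 to 3548512 in Gcn2 -All and 527521 to 529730 in Gcn2 Yaa, and 2771412 to 3184887 in wDah -All and 395810 to 470019.9 in wDah Yaa. The digestive sum was 329007 to 349761 in Gcn2 -All and 193038 to 225541 in Gcn2 Yaa, and 384882 to 424176 in wDah -All and 183485 to 207675 in wDah Yaa. Their part in these results, and that of the ovary markers, was not tested. Scaled to equal totals, these splits became 6 higher and 6 lower in Gcn2 and 9 higher and 7 lower in wDah, and the members' median of 0.27 in wDah became -0.02 as that of all genes became -0.30. The share of all genes called was not computed with this scaling. GstD8 rose in both genotypes, with 112, 152 and 152 normalized counts in Gcn2 -All against 16.0, 10.3 and 15.3 in Gcn2 Yaa (3.24 ± 0.26, adjusted p = 0.000289). In wDah flies GstD8 had 116, 133 and 105 on -All against 19.4, 6.77 and 8.46 on Yaa (3.37 ± 0.36, adjusted p = 0.000394). It was the member with the largest change on -All in both genotypes.

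Of the genes near GstD8 in the cluster, GstD7 and GstD5 followed in part. GstD6, which lies between them, had 2.01, 2.27 and 3.41 normalized counts in Gcn2 -All against 1.68, 2.38 and 3.07 in Gcn2 Yaa. GstD11, on the other side of GstD8, had 10.4, 11.8 and 4.43 in Gcn2 -All against 19.3, 14.6 and 19.4 in Gcn2 Yaa. GstD7 had 40.6, 39.5 and 34.1 normalized counts in wDah -All against 5.28, 2.90 and 5.64 in wDah Yaa, and the ratio of these small sums was 8.14, with a 95% counting interval of 4.66 to 15.4. In Gcn2 flies GstD7 had 36.2, 44.3 and 25.6 on -All against 10.1, 5.56 and 9.20 on Yaa, a ratio of 4.24 (2.72 to 6.84). The groups did not overlap in either genotype, and no p is given for GstD7, as its Yaa means were under the minimum. GstD5 had 81.2, 71.8 and 37.2 in wDah -All against 12.3, 9.67 and 12.2 in wDah Yaa (2.31 ± 0.33, adjusted p = 0.00163). In Gcn2 flies the values of GstD5 were 45.3, 98.9 and 121 on -All and 41.2, 49.3 and 49.8 on Yaa, which overlap (0.80 ± 0.37, adjusted p = 0.216). The interaction on -All passed in 1 of 32 members tested, GstT1 (-0.66 ± 0.10, adjusted p = 0.00891), where 0.882% of all genes passed (0.391% upward and 0.491% downward).

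Epsilon genes were also among those that changed on -All. GstE8 had 276, 296 and 291 normalized counts in Gcn2 -All against 120, 164 and 97.6 in Gcn2 Yaa (1.20 ± 0.19, adjusted p = 0.0066). GstE3 had 770.0, 856 and 695 in Gcn2 -All against 385, 323 and 369.6 in Gcn2 Yaa (1.10 ± 0.11, adjusted p = 0.000848). In wDah flies GstE8 had 312, 281 and 184 on -All against 103, 115 and 115 on Yaa (1.18 ± 0.19, adjusted p = 0.00261). Neither gene overlapped between the diets, and GstE3 rose by 0.97 ± 0.15 in wDah flies. GstE7 had 471, 586 and 441 in wDah -All against 231, 236 and 231 in wDah Yaa (1.09 ± 0.11, adjusted p = 0.000253). GstE12 and GstS1 rose by 0.59 ± 0.07 and 0.60 ± 0.08 in Gcn2 flies, and by 0.50 ± 0.04 and 0.62 ± 0.05 in wDah flies. In Gcn2 flies GstE1 fell by 0.75 (SE 0.16, adjusted p = 0.0204) and GstT1 by 0.56 (SE 0.08, adjusted p = 0.00431). The GstE1 call was lost without Gcn2 Yaa replicate 1 or any Gcn2 -All library (highest adjusted p = 0.0916). Without Gcn2 -All replicate 1, 2 or 3 the Gcn2 comparison had 8, 7 or 8 calls in all.

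On -M, no member called in either genotype changed by over 2-fold. Such changes were also few among all genes in wDah flies (1.64%), and that share was not computed for Gcn2 flies. In Gcn2 flies 6 members rose and 1 fell of 33 tested, where 10.9% of all genes tested passed (8.53% higher and 2.33% lower), and no GstD gene was among them. GstE7 rose by 0.84 ± 0.14, GstE3 by 0.64 ± 0.11, GstE12 by 0.50 ± 0.08, GstZ2 by 0.46 ± 0.09, GstS1 by 0.44 ± 0.10 and GstE6 by 0.41 ± 0.09. GstT1 fell to 594, 527 and 558 normalized counts in Gcn2 -M, against 859, 831 and 911 in Gcn2 Yaa (-0.63 ± 0.08, adjusted p = 0.00325). Without Gcn2 -M replicate 1, 2 or 3 only 2, 3 or 4 members passed, with the replicate number as a block 6 passed as GstZ2 was lost, and scaled to equal totals 3 rose and 2 fell. GstE7 and GstT1 were the members called under every alternative. In wDah flies 11 rose and 1 fell of 31 tested, where 25.2% of all genes passed (14.1% higher and 11.1% lower). None of the 12 changed by over 2-fold, as 1.64% of all genes did, and the call of GstE12 was lost under 8 alternatives and that of GstE3 under 7 of 13. The largest was GstE7 with 425, 501 and 431 in wDah -M against 236, 240.3 and 236 in wDah Yaa (0.92 ± 0.08, adjusted p = 0.000132), followed by GstZ2 (0.80 ± 0.07) and GstE11 (0.75 ± 0.09). The interaction on -M passed in 1 member upward and 2 downward of 31 tested, where 6.93% of all genes passed (4.21% upward and 2.71% downward), and the largest was GstT1 (-1.01 ± 0.11, adjusted p = 0.00017). The fat body sum was 1716181 to 1928044 in Gcn2 -M and 527521 to 529730 in Gcn2 Yaa, and 596635 to 658076 in wDah -M and 395810 to 470019.9 in wDah Yaa. The digestive sum was 301905 to 327729 in Gcn2 -M and 193038 to 225541 in Gcn2 Yaa, and 280986 to 332619 in wDah -M and 183485 to 207675 in wDah Yaa, and their part in these results was not tested.

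In wDah flies on -R, 10 members rose and 1 fell of 31 tested, where 22.4% of all genes tested passed (13.8% higher and 8.54% lower). The median log2 fold change was 0.22 over the members and -0.01 over all genes. GstE7 had 579.6, 666 and 447 normalized counts in wDah -R against 227, 233 and 227 in wDah Yaa (1.28 ± 0.13, adjusted p = 0.000275). GstD5 had 24.1, 54.1 and 29.7 in wDah -R against 12.1, 9.54 and 12.0 in wDah Yaa (1.52 ± 0.35, adjusted p = 0.0159). GstD8 had 30.7, 40.6 and 27.5 in wDah -R against 19.1, 6.67 and 8.31 in wDah Yaa (1.57 ± 0.40, adjusted p = 0.0263). None of the 3 genes overlapped between the diets, but the GstD8 call was lost without any wDah -R library or without wDah Yaa replicate 2 or 3 (highest adjusted p = 0.0813). GstD2 (-0.06 ± 0.55) and GstD10 (0.22 ± 0.11), with the large changes in Gcn2 flies, did not pass in wDah. GstT4 rose to 3300.2, 2778 and 3002 in wDah -R, against 2042, 2175 and 2043 in wDah Yaa (0.53 ± 0.06, adjusted p = 0.000553). Scaled to equal totals, 9 members rose and 3 fell, and the share of all genes called was not computed with this scaling.

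Across the diets, 7 members rose on -R, -M and -All in wDah flies, namely GstE7, GstT4, GstE12, GstS1, GstE8, GstD1 and GstE3. In Gcn2 flies 4 did so, namely GstE6, GstE7, GstE3 and GstS1. These were 4 of 33 members tested on all 3 diets in Gcn2 flies, where 3.69% of all such genes rose on all 3, and 7 of 31 in wDah flies, where 7.15% did. Several of these calls were lost under an alternative. In wDah flies this held for GstD1 on each diet and for GstE12 and GstE3 on -M, and in Gcn2 flies for GstE6, GstE3 and GstS1 on -M, GstE3 and GstS1 on -R, and GstE6 and GstE7 on -All. On at least 1 diet, 25 of 35 members rose in Gcn2 flies, where 22.3% of all genes did, and 15 of 32 in wDah flies, where 25.9% did. GstO2 fell on all 3 diets in wDah flies, as 2.68% of all genes did, by 0.21 on -R, 0.28 on -M and 0.21 on -All on the log2 scale. Of these calls of GstO2, that on -R was lost without wDah Yaa replicate 3 (highest adjusted p = 0.0602), and that on -All without any wDah Yaa library or wDah -All replicate 2 or 3 (highest adjusted p = 0.103). GstD11, GstE10, GstE2, GstE4, GstO1 and GstO3 were called in none of the 6 diet comparisons. The 3 comparisons of a genotype share its Yaa libraries, so these counts are not independent.

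**Figure D5:**
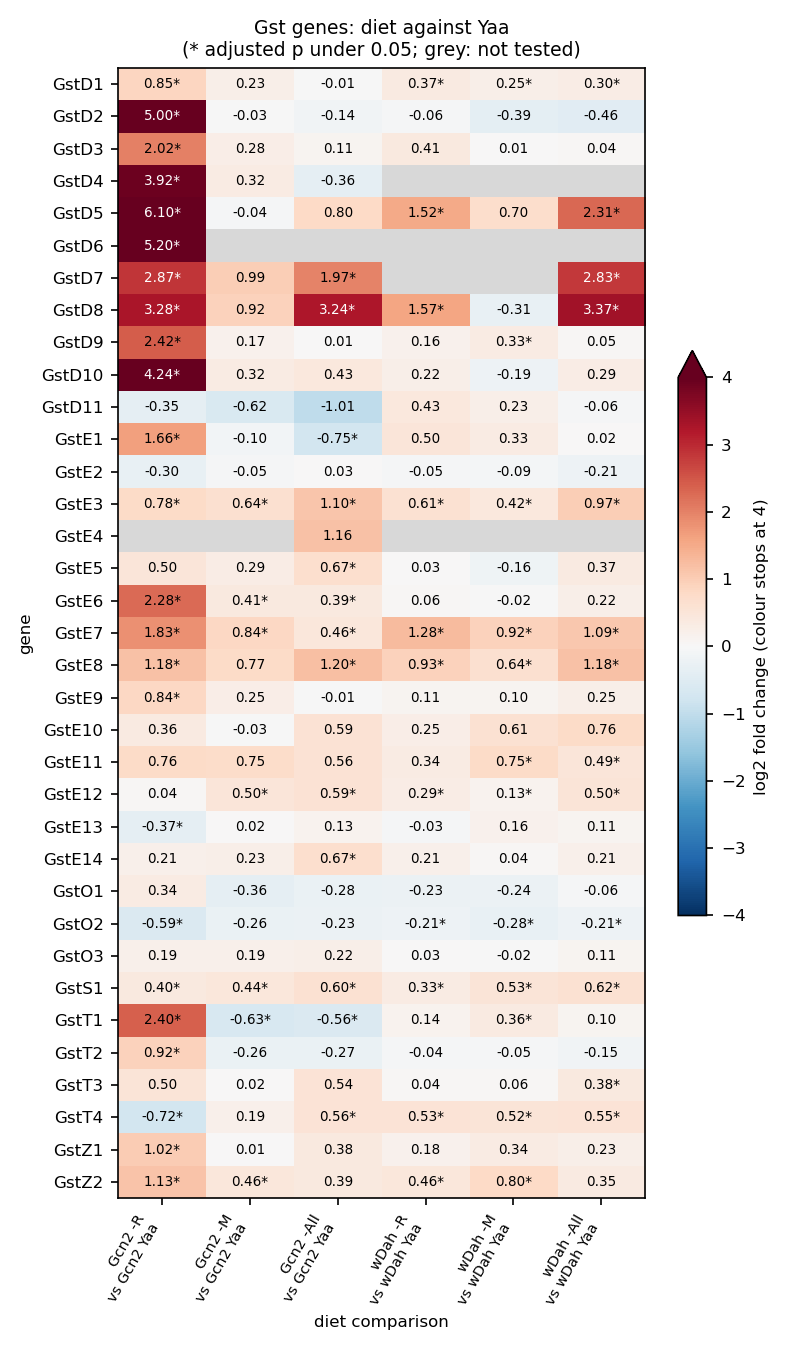
Heat map of the log2 fold change against Yaa of every GST gene (rows; grey where not tested) on -R, -M and -All in Gcn2 and wDah flies (columns), with a star at an adjusted p under 0.05. The Gcn2 -R column holds the largest changes (GstD5 at 6.10), GstD8 is far above 0 on -All in both genotypes (3.24 in Gcn2, 3.37 in wDah), and GstO2 is below 0 in wDah flies on all 3 diets.

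On the control diet, of the 31 members tested, 6 were higher and none lower in Gcn2 Yaa than in wDah Yaa, where 2.69% of all genes tested passed (1.38% higher and 1.31% lower). GstD5 had 41.9, 50.1 and 50.6 normalized counts in Gcn2 Yaa against 12.1, 9.42 and 11.9 in wDah Yaa (2.00 ± 0.24, adjusted p = 0.00985). GstE1 had 2222, 2055 and 1449 in Gcn2 Yaa against 871, 903 and 802 in wDah Yaa (1.13 ± 0.16, adjusted p = 0.0181). GstT1 had 798, 773 and 845 in Gcn2 Yaa against 484, 432 and 465 in wDah Yaa (0.81 ± 0.07, adjusted p = 0.00363). GstE7, GstD1 and GstE9 were the others, at 0.87, 0.45 and 0.41. Only GstT1 passed under every alternative (highest adjusted p = 0.0803 for GstD5 and 0.11 for GstE1), and the count fell to 1, 2 or 1 without wDah Yaa replicate 1, 2 or 3, to 3 without Gcn2 Yaa replicate 1 or 3, and to 2 with the replicate number as a block.

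On -M more members were called between the genotypes than on Yaa, and on -All none was called. In Gcn2 -M, 11 of 32 members tested were higher than in wDah -M and 5 were lower, where 23.1% of all genes tested passed (12.2% higher and 10.9% lower). The count was 10 in all without Gcn2 -M replicate 1 or wDah -M replicate 3, and 8 of the 16 calls were lost under an alternative. GstD8 had 27.9, 42.5 and 16.5 normalized counts in Gcn2 -M against 9.56, 7.03 and 7.97 in wDah -M, a ratio of 3.48 (95% counting interval 2.21 to 5.67). GstD7 had 14.5, 18.3 and 18.8 in Gcn2 -M against 6.37, 5.02 and 6.98 in wDah -M, a ratio of 2.89 (1.66 to 5.25). Both genes reached the minimum only through Gcn2 -M, and without them 9 of 30 members were higher. Both zeta genes were lower in Gcn2 -M, with log2 differences of -0.64 ± 0.07 for GstZ2 and -0.64 ± 0.14 for GstZ1, as were GstT4 (-0.37 ± 0.05), GstS1 (-0.36 ± 0.08) and GstE13 (-0.24 ± 0.05). Of these calls, that of GstZ1 was lost without wDah -M replicate 3 (highest adjusted p = 0.0553) and that of GstS1 without wDah -M replicate 1 or 2 (highest adjusted p = 0.0548). In Gcn2 -All against wDah -All, limma called 0 of 32 members at adjusted p under 0.05, 4 had an unadjusted p under 0.05, and 1.07% of all genes tested passed (0.56% higher and 0.514% lower). As so few of all genes passed, the count of 0 does not set the members apart from them. The lowest adjusted p was 0.0612, for GstS1, and with the replicate number as a block 1 member passed.

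Around the GST genes, the genes that supply and recycle glutathione were examined. In Gcn2 -R against Gcn2 Yaa, 9 of 12 rose and none fell, where 15.5% of all genes tested rose and 5.41% fell. The median log2 fold change of the 12 was 0.72. Cbs and Eip55E, the enzymes that turn homocysteine into cysteine, rose by 1.16 and 1.18, and Gclc, the catalytic subunit of the first step of glutathione synthesis, by 0.42. Trxr-1, which in flies keeps glutathione reduced through thioredoxin, rose by 1.36 and Trx-2 by 0.75. Gss1 and Gss2, adjacent glutathione synthetase copies with the same values, rose by 0.78 and are counted separately. Cbs fell by 0.65 in wDah -R, and its interaction was 1.85 ± 0.24 (adjusted p = 0.000288). In wDah -R, 7 of the 12 rose and Cbs fell, with a median of 0.17, where 13.8% of all genes rose and 8.54% fell. Of the GST-fold genes outside the naming rule 1 of 7 rose in Gcn2 -R, Mgstl (microsomal GST), with 3917, 3399 and 3908 normalized counts against 1833, 1774 and 1848 in Gcn2 Yaa (1.04).

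The regulators moved differently. None of cnc, Keap1 and maf-S passed in Gcn2 -R against Gcn2 Yaa, at -0.05, -0.11 and -0.16. In wDah -R, cnc rose by 0.30 and Keap1 by 0.59 while maf-S fell by 0.25, and all 3 also passed in the same directions on -M and -All. The interaction on -R was -0.66 ± 0.17 for Keap1 (adjusted p = 0.0173) and did not pass for cnc (-0.31 ± 0.24, adjusted p = 0.373). Among the efflux pumps that export conjugates, Mdr50 rose by 2.44, MRP by 0.94 and Mdr49 by 0.72 in Gcn2 -R, and Mdr65 did not pass. In wDah -R against Yaa, 3 of the 4 pumps also rose. Of the peroxide and superoxide enzymes, 5 of 11 rose and none fell in Gcn2 -R, and the counts were the same in wDah -R. The phase I list, all genes named Cyp and a digit, had 22 higher and 5 lower of 76, and the phase II list of Ugt genes 12 higher and 1 lower of 29. The first includes Cyp1, a cyclophilin and not a cytochrome P450, which was 1 of the 22. On wDah -R these lists had 32 higher and 5 lower of 74 and 8 higher and none lower of 27. Over all genes tested, 15.5% rose and 5.41% fell in Gcn2 -R, and 13.8% rose and 8.54% fell in wDah -R.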

How the data were processed

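RNA was sequenced by the authors as 100 bp single-end polyA reads and quantified with kallisto 0.46.2. The deposited signal values are estimated counts per gene normalized by size factors in DESeq2 1.24.0, in 6 tables of one diet against Yaa and 1 table of all 24 libraries, each with its own size factors. The last also holds the deposited FPKM. The authors' columns of log2 fold changes, p-values and adjusted p-values were not used. As the deposited values are not raw counts, no count model was run. Diets were compared with Yaa in their own tables, and all other comparisons were made in the table of 24 libraries, so levels are compared only within a table. The tests were two-sided and used limma (version 3.58.1, R 4.3.3; linear fit and moderated variance with a trend) on log2(normalized count + 1), over genes with a mean of at least 10 in the libraries compared. P-values were adjusted over all genes tested (Benjamini-Hochberg), with a threshold of 0.05. Replicates are biological by the study's methods, and p-values measure the spread between these samples. Intervals on ratios of summed counts are exact (Clopper-Pearson, 95%) and cover counting error only.

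Gene positions came from the Ensembl annotation of BDGP6.54. The strandedness of counting is not given in the sources used here, so reads of overlapping genes cannot be told apart. Members and lists were chosen with earlier results of these data known. Library values and full statistics are given for members with an adjusted p under 0.05, a log2 fold change of at least 1 in size and groups that do not overlap, at most the 8 largest in each comparison, and levels for the 2 members of each subclass with the highest FPKM. Alternatives were another pseudocount, other filters, scaling to equal totals, FPKM, 1 fit of all 24 libraries, the replicate number as a block, and leaving out libraries. The labels do not pair the libraries. Only in Gcn2 -M against Gcn2 Yaa were deviations of same-numbered libraries correlated by over 0.1 for every replicate number (0.27, 0.485 and 0.229). Replicate 2 stood apart in oenocyte markers in both of these groups, and its part in the correlations was not tested. The fitting was tested on simulated data. Summaries and figures were made in Python 3.11.15.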

Additional observations from a re-analysis of the deposited data

Results flagged for a closer look

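The diet effect differed between the genotypes by the interaction test (limma, adjusted p under 0.05; Gcn2 minus wDah on the log2 scale) in the following members. On -R the difference was 5.10 for GstD2, 4.61 for GstD5, 4.06 for GstD10, 2.31 for GstD9, 1.73 for GstD8, 1.65 for GstD3 and 0.52 for GstD1 (adjusted p = 0.000755, 7.51e-06, 1.1e-06, 7.85e-07, 0.0265, 0.000114 and 0.0149). Among the epsilon genes it was 2.26 for GstE6 and 0.77 for GstE9 (adjusted p = 1.83e-05 and 0.00373). In the theta class it was 2.30 for GstT1, 1.00 for GstT2 and -1.21 for GstT4 (adjusted p = 3.55e-07, 0.00393 and 3.91e-05). The zeta genes GstZ1 and GstZ2 had 0.88 and 0.71 (adjusted p = 0.00232 and 0.00363), and GstO2 had -0.34 (adjusted p = 0.0423). On -M it was -1.01 for GstT1, 0.35 for GstE12 and -0.34 for GstT4 (adjusted p = 0.00017, 0.0274 and 0.0253), and on -All -0.66 for GstT1 (adjusted p = 0.00891). Of these, 4 differences were lost under an alternative. That of GstD8 on -R was lost with a minimum mean of 50 and without wDah -R replicate 1 or 3 or Gcn2 -R replicate 2 (highest adjusted p = 0.0682). Those of GstO2 on -R, GstE12 on -M and GstT4 on -M were lost without any of several single libraries (highest adjusted p = 0.12, 0.0788 and 0.0859). On -R the difference of GstD4 was 3.33, but GstD4 reached the minimum mean only through Gcn2 -R. Its wDah means on -R and Yaa were under the minimum of 10 counts, so no p is given.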

How the results depend on the processing

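Of 188 calls of members over the 15 comparisons, 133 held under every alternative in which the gene was tested and none reversed. A gene that an alternative left out could not lose its call there. With a minimum mean of 50, 175 calls held, 2 were lost and the rest were not tested. Single libraries left out moved the number of members called to 9 to 12 in wDah -R, 10 to 12 in wDah -M, 11 to 16 in wDah -All, 20 to 26 in Gcn2 -R, 2 to 10 in Gcn2 -M and 7 to 16 in Gcn2 -All, each against Yaa. Between genotypes the range was 1 to 7 on Yaa, 19 to 25 on -R, 10 to 13 on -M and 0 on -All, and for the interaction 14 to 20 on -R, 1 to 4 on -M and 1 on -All. Gcn2 -R had 20 to 23 calls against Gcn2 -M and 17 to 22 against Gcn2 -All. With the replicate number as a block, 8 members were called in Gcn2 -All against Yaa, 2 in Gcn2 Yaa against wDah Yaa, 1 in Gcn2 -All against wDah -All and 20 in Gcn2 -R against Yaa. In Gcn2 -R, replicate numbers 1 and 2 correlated negatively with those of Gcn2 Yaa (-0.496 and -0.487). Scaling to equal totals lost 25 calls, the block 24 and 1 fit of all 24 libraries 14, and the cause was not tested. Without both libraries that stood apart, the interaction on -R passed in 22 members, 18 upward and 4 downward. The share of all genes that passed was not computed under any alternative, so these counts cannot be set against all genes. GstD4, GstD6, GstD7, GstD11 and GstE4 were under the minimum mean or near it in most groups, so their values are the least precise.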
